A study of Mus musculus with 6 samples.

Results

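Receptor chains for interleukin 12 (IL-12), IL-27, IL-6, IL-10, interferon gamma and the type I interferons were examined in CD8+ T cells sorted from mouse liver. The 10 genes are Il12rb1, Il12rb2, Il27ra, Il6ra, Il10ra, Il10rb, Ifngr1, Ifngr2, Ifnar1 and Ifnar2. Their probes were taken from the arrays by gene name alone, though the list of genes was chosen with earlier results of these data known. All 10 genes were found, read by 14 probes, among 16389 genes and 25103 probes that could be tested. The TGC3 group (3 samples) came from mice that carry the dnTGFβRII transgene, a dominant negative form of TGF-beta receptor II, and that also lack the chemokine receptor CXCR3. The TG group (3 samples) came from mice with the dnTGFβRII transgene alone, so that every animal of the study carried it and no wild-type sample was part of the comparison. All mice were female, of C57BL/6 background and 13 to 14 weeks old. The promoter that drives the transgene and any pooling of animals are not given in the sources used here, and since nothing states that the samples came from separate mice, the p-values measure only the spread between these samples. Each sample's RNA was hybridised to its own 1-colour Agilent array, and an array is called by its genotype and number, such as TGC3 2 or TG 1.

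These receptors belong to the 2 classes of cytokine receptor that have no kinase of their own and signal through JAK kinases and STAT transcription factors bound to their tails. IL-12 is read by IL12RB1 with IL12RB2 and acts mainly through STAT4, which drives interferon gamma production in T cells. IL-27 is read by IL27RA with the shared chain gp130 (Il6st), and IL-6 by IL6RA with gp130, with STAT3 among the factors downstream. IL-10 is read by IL10RA, which binds the cytokine and recruits STAT3, with IL10RB, a chain shared with other receptors of that family. Interferon gamma is read by IFNGR1 with IFNGR2, which bind JAK1 and JAK2, while type I interferons are read by IFNAR1 with IFNAR2 and act in part through STAT2 and IRF9. In CD8+ T cells IL-12 and type I interferons support effector differentiation during priming.

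The 10 genes lie on 6 chromosomes. The files place the probes on mm9, and each probe is a 60-base oligonucleotide, shown by its first 30 bases for the genes on which the results turn: the 3 that passed the test, and the 2 genes whose probes read different transcript records.
Il27ra (NM_016671, chr8:86554885-86554944, minus strand): ggccttctagtctgatctgcttacggctag
Il6ra, brighter probe (NM_010559, chr3:89680743-89680802, minus strand): cctgcccacattcctggtagctggaggaag
Il6ra, dimmer probe (NM_010559, chr3:89690491-89690550, minus strand): cctgagacctgggacccgagttactacttg
Ifnar1 (NM_010508, chr16:91507039-91507098, plus strand): tagcgggaagttgttagttggcactctttc
Ifnar2, brighter probe (NM_010509, chr16:91405479-91405538, plus strand): tacatgggtcctggctcaaagacttccaat
Ifnar2, dimmer probe (NM_010509 and NM_001110498, chr16:91394044-91394103, plus strand): gtccttagagacttacttccaaagacaaac
Il10rb, brighter probe (NM_008349, chr16:91425892-91425951, plus strand): ccatgcgggacagacatgaacattttggat
Il10rb, dimmer probe (clone AK018347, chr16:91414583-91414642, plus strand): aaacaataggattggaataatcctaaattt

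Between 58.9% and 63.8% of probes lay well above background on the TGC3 arrays and between 59.99% and 61.4% on the TG arrays. The deleted gene checked the labels: the Cxcr3 probe had scaled log2 values of -4.64, -4.21 and -4.53 on the TGC3 arrays, against 6.94, 6.85 and 6.89 on the TG arrays (scaled to the 75th percentile of the array). The markers of the labelled cell type were bright in both groups, with Cd8a at scaled log2 values of 7.27 to 7.44 in TGC3 and 7.36 to 7.65 in TG, and 7 of 7 T cell and CD8 markers on the array could be tested. Of these 2 were lower in TGC3 and 0 higher, Cd3g (-0.29 ± 0.08, adjusted p = 0.0413) and Cd3d (-0.25 ± 0.07, adjusted p = 0.0480), named after their values were seen. The median change of the 7 was -0.20, and their summed signal was 823 to 896 in TGC3 and 891 to 986 in TG, relative to the 75th percentile of the array. Their part in the receptor results was not tested. The TGC3 arrays shared a slide and the TG arrays shared another, which means that the effect of slide and that of genotype cannot be told apart in any of these comparisons. Over all genes 2721 were higher and 1552 lower in TGC3, 63.7% of the calls being higher. This split depended on the scaling and background, with 27.3% of calls higher after median centring, where the median change of all genes was -0.18, against -0.01 as scaled here, and 52.1% when normexp was run with the 7 aberrant local backgrounds of TG 3 replaced. Because a bulk sample holds many cells, fewer cells of a type and less RNA per cell cannot be told apart.

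Of the receptor transcripts, 3 were slightly lower in TGC3 cells than in TG cells and 0 were higher by the test. Values are log2 signals minus the 75th percentile of the array, a change is TGC3 minus TG with its standard error by limma (3 arrays per genotype), and each p is adjusted over all 16389 genes. Il6ra, Ifnar1 and Il27ra fell, 0 rose and 7 did not pass the threshold of 0.05. That is 3 of 10 called, where 26.1% of all genes tested were called in either direction, 9.47% lower and 16.6% higher; the share called in all was near the background, and the difference in direction was not tested. Of the 10 fitted changes 9 were below 0, with a median of -0.25 against -0.01 for all genes, and 6 genes had every TGC3 value below every TG value, with 0 the other way. Of all genes 46.7% had groups that did not overlap, 22.4% with TGC3 lower and 24.3% with TGC3 higher. At an unadjusted p under 0.05, 6 receptors were lower and 0 higher, where 40.1% of all genes passed in either direction. The number changed at least 2-fold was 0, the largest change of the 10 being 1.47-fold. All 10 genes were above background on all 6 arrays, so that none entered through 1 group alone. The deleted gene Cxcr3 was too, at 24 to 33 intensity units in TGC3, so this mark alone does not set an expressed gene apart from a deleted one.

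**Figure D1:**
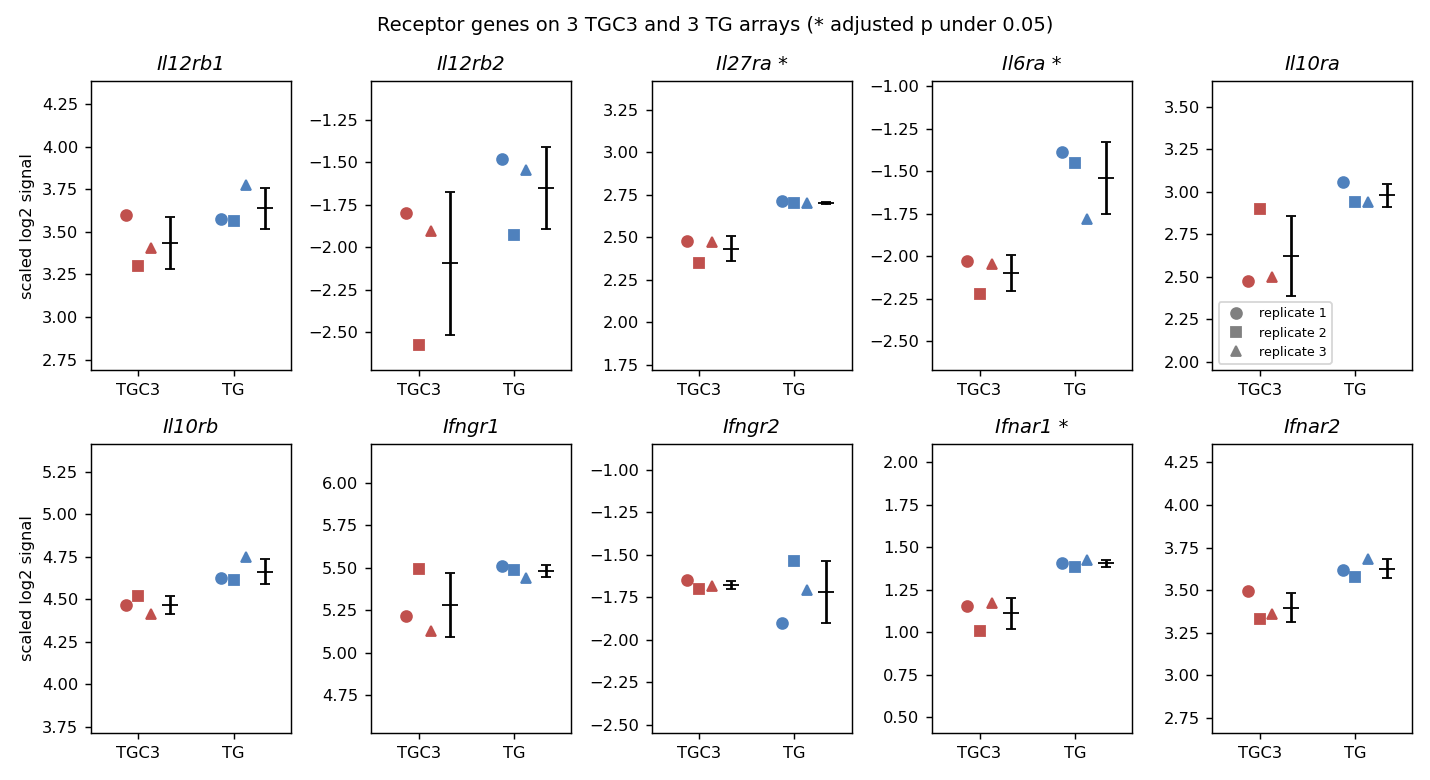
Scaled log2 signal of the 10 receptor genes on each array, TGC3 left and TG right in every panel, with the group mean and SD as a bar beside the points (n = 3 each) and axes of equal span. Il27ra, Il6ra and Ifnar1, marked with a star, have TGC3 values that lie clear of the TG values, whereas Ifngr2 overlaps fully.

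Bright genes had small negative median changes too. When all genes were divided into 10 classes by mean signal, the median change was -0.07 in class 7, which holds Ifnar1, and -0.08 in classes 9 and 10, which hold Il12rb1, Il10ra, Il27ra, Ifnar2, Il10rb and Ifngr1. In class 4, which holds the dimmer genes Il6ra, Il12rb2 and Ifngr2, it was 0.09. Set against its own class, the change was -0.65 for Il6ra, -0.53 for Il12rb2, -0.28 for Il10ra, -0.22 for Ifnar1, -0.19 for Il27ra and between -0.15 and -0.05 for the other 5 genes. The share of genes called lower was 7.81% in class 4, 11.3% in class 7, 13.2% in class 9 and 11.8% in class 10.

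The chains of the IL-12 receptor did not pass the test. Il12rb1, the chain shared with the IL-23 receptor, read 3.60, 3.30 and 3.41 on TGC3 1 to TGC3 3, against 3.57, 3.57 and 3.78 on TG 1 to TG 3. The groups overlapped, since TGC3 1 lay above 2 of the TG arrays, and the difference was -0.20 ± 0.10 (adjusted p = 0.200). Il12rb2, the signalling chain that recruits STAT4 and whose expression sets whether a T cell responds to IL-12, read -1.80, -2.58 and -1.91 in TGC3, against -1.48, -1.93 and -1.54 in TG. Its signal was low, at 102 to 170 intensity units in TGC3 and 151 to 213 in TG, and TGC3 2 lay below all other arrays while TGC3 1 lay above TG 2. The difference of -0.44 ± 0.23 (adjusted p = 0.207) had a 95% interval of -1.01 to 0.12. It was -0.20 without TGC3 2 (adjusted p = 0.376).

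The alpha chains of the IL-27 and IL-6 receptors both fell, as did the chain they share. Il27ra, the IL-27 binding chain, read 2.48, 2.35 and 2.47 in TGC3, against 2.71, 2.70 and 2.70 in TG. All TGC3 arrays lay at least 0.22 below the lowest TG array, a change of -0.27 ± 0.06 (adjusted p = 0.0263), or 1.21-fold lower. Il6ra, the IL-6 binding chain, read -2.03, -2.22 and -2.05 on its brighter probe in TGC3, against -1.39, -1.45 and -1.78 in TG. No TGC3 array reached the lowest TG array, and the change was -0.56 ± 0.12 (adjusted p = 0.0218), or 1.47-fold lower. The signal of this probe was low, at 131 to 151 intensity units in TGC3 and 181 to 214 in TG. The dimmer Il6ra probe read -2.74, -2.98 and -2.83 in TGC3 and -2.31, -2.44 and -2.56 in TG, and it passed too when every probe was fitted on its own (-0.41 ± 0.10, adjusted p = 0.0291 over probes, 8.37% of probes being called lower). Il6st, which encodes gp130, read 1.06, 0.95 and 0.82 in TGC3, against 1.51, 1.55 and 1.48 in TG, a change of -0.57 ± 0.08 (adjusted p = 0.00563) that passed without any 1 array.

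Neither alpha chain held its call throughout. Il6ra lost its call on leaving out TGC3 2, TGC3 3, TG 1 and TG 2 in turn (adjusted p = 0.0532, 0.0547, 0.0655 and 0.0719), with changes of -0.50, -0.59, -0.48 and -0.52. It was also not called with no filter on dim probes (adjusted p = 0.0559). With normexp and the aberrant backgrounds replaced, the Il6ra change was -0.43 and passed (adjusted p = 0.0181). Il27ra kept it on leaving out TGC3 2 and lost it on leaving out TGC3 1, TGC3 3, TG 1, TG 2 and TG 3 in turn (adjusted p = 0.0592, 0.0582, 0.0846, 0.0805 and 0.0632), with changes of -0.29, -0.29, -0.27, -0.27 and -0.27. Il27ra was also not called after quantile or cyclic loess normalization or in the deposited normalized values (-0.21, -0.20 and -0.21, adjusted p = 0.0605, 0.0724 and 0.0630). Hepatocytes also express Il6ra, and on these arrays 1 of 11 hepatocyte markers could be tested, with a summed signal of 0.107 to 0.118 in TGC3 and 0.0609 to 0.0658 in TG relative to the array's 75th percentile. Of the hepatocyte markers Apoa1, Ttr, Fgb, Cyp2e1 and Apoc3 were above background on no array. Their part in the Il6ra result was not tested.

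The chains of the IL-10 receptor had TGC3 values below all TG values on their main probes, without passing. Il10ra, the chain that binds IL-10, read 2.47, 2.90 and 2.50 in TGC3, against 3.06, 2.94 and 2.94 in TG. TGC3 2 lay 0.04 below the lowest TG array, TGC3 1 and TGC3 3 lay lower still, and the difference was -0.36 ± 0.13 (adjusted p = 0.0870). Without TGC3 2 it was -0.495 and passed (adjusted p = 0.0123), but on leaving out any other 1 array it did not (adjusted p = 0.150 to 0.213). Il10rb read 4.47, 4.52 and 4.42 in TGC3, against 4.62, 4.62 and 4.75 in TG, a difference of -0.19 ± 0.07 (adjusted p = 0.0811). Its dimmer probe, which matches a clone described in the files as unclassifiable, pointed the other way, with -3.44, -3.37 and -3.57 in TGC3, against -3.69, -3.85 and -4.09 in TG (0.415 ± 0.12, adjusted p = 0.0521 over probes). The signal of this probe was low, at 53 to 59 intensity units in TGC3 and 36 to 44 in TG. In class 2 by mean signal, which holds genes this dim, the median change was 0.28.

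The place of TGC3 2 among the TGC3 arrays differed between the receptors. It read lowest of the TGC3 arrays for 7 of the 10 genes (Il12rb1, Il12rb2, Il27ra, Il6ra, Ifngr2, Ifnar1 and Ifnar2) and highest for the other 3 (Il10ra, Il10rb and Ifngr1). The same array had the highest summed signal of neutrophil markers, 8.03 against 1.63 and 3.04 on TGC3 1 and TGC3 3, with 0.110 to 0.174 on the TG arrays. Of 12 neutrophil markers 4 could be tested, with 2 higher in TGC3 and 0 lower, and Elane, Lcn2, Cxcr2 and Csf3r were above background on no array. The summed signal of macrophage and monocyte markers, 7 of 15 tested, was 285 on TGC3 2, against 234 and 228 on the other TGC3 arrays and 254 to 269 on the TG arrays. Of these 7 markers 3 were higher in TGC3 and 0 lower, with a median change of 0.28. The 3, named after their values were seen, were Lyz2 (3.22 ± 0.81, adjusted p = 0.0334), Marco (0.38 ± 0.10, adjusted p = 0.0394) and C1qb (0.35 ± 0.07, adjusted p = 0.0145). The sum is led by Ly6c2, which CD8+ T cells also express, and Cd163, C1qa and C1qc were above background on no array. TGC3 2 also had the highest sum of the TGC3 arrays for CD8 T cell, natural killer cell, dendritic, stellate, endothelial and erythroid markers. For CD4 T cell, B cell, hepatocyte and cholangiocyte markers it did not. Myeloid cells express Il10ra, Ifngr1 and Il6ra too, and the part of these markers in the receptor values was not tested.

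**Figure D2:**
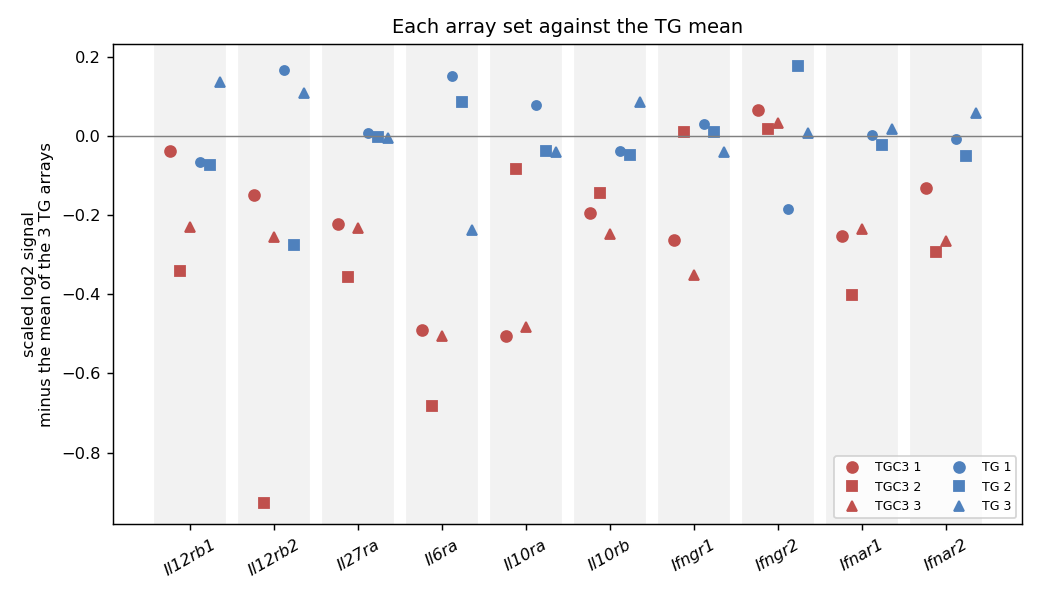
Each array's scaled log2 signal minus the mean of the 3 TG arrays, for the 10 receptor genes, with TGC3 arrays in red left of TG arrays in blue and symbols for the replicate. TGC3 2 (red squares) is the lowest TGC3 array for 7 genes and the highest for Il10ra, Il10rb and Ifngr1.

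The chains of the interferon gamma receptor did not pass. Ifngr1, the ligand binding chain, read 5.22, 5.49 and 5.13 in TGC3, against 5.51, 5.49 and 5.44 in TG. TGC3 2 fell within the TG range and the other TGC3 arrays below it, a difference of -0.20 ± 0.10 (adjusted p = 0.203). Without TGC3 2 the difference became -0.31 and passed (adjusted p = 0.0305). On leaving out any other 1 array it did not pass (adjusted p = 0.266 to 0.437). Ifngr2, the chain that completes the receptor and brings JAK2, read -1.65, -1.70 and -1.68 in TGC3, against -1.90, -1.54 and -1.71 in TG. All TGC3 values lay between TG 1 and TG 2, and the difference of 0.04 ± 0.10 (adjusted p = 0.799) had a 95% interval of -0.20 to 0.28. Its dimmer probe read -3.36, -3.19 and -3.11 in TGC3, against -3.29, -3.52 and -3.43 in TG (0.20 ± 0.10, adjusted p = 0.190 over probes). The signal of that probe was low, at 58 to 72 intensity units in TGC3 and 50 to 57 in TG.

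Of the type I interferon receptor chains, Ifnar1 fell and Ifnar2 missed the threshold. Ifnar1, the chain that binds the kinase TYK2, read 1.15, 1.01 and 1.17 in TGC3, against 1.41, 1.38 and 1.42 in TG. Every TGC3 array lay at least 0.21 below the lowest TG array, and the change was -0.30 ± 0.07 (adjusted p = 0.0258), or 1.23-fold lower. Ifnar2, the high affinity chain bound by JAK1 and STAT2, read 3.49, 3.33 and 3.36 in TGC3, against 3.62, 3.57 and 3.68 in TG. Here too the groups did not overlap, with a difference of -0.23 ± 0.07 (adjusted p = 0.0591, 95% interval -0.40 to -0.06). The dimmer Ifnar2 probe, which reads a further transcript variant, had 2.97, 3.04 and 2.77 in TGC3, against 3.02, 3.03 and 3.19 in TG, and its groups overlapped (-0.15 ± 0.09, adjusted p = 0.277 over probes). Ifnar1 lost its call on leaving out TGC3 1, TG 1, TG 2 and TG 3 in turn (adjusted p = 0.0607, 0.0803, 0.0718 and 0.0682), with changes of -0.32, -0.29, -0.31 and -0.29.

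**Figure D3:**
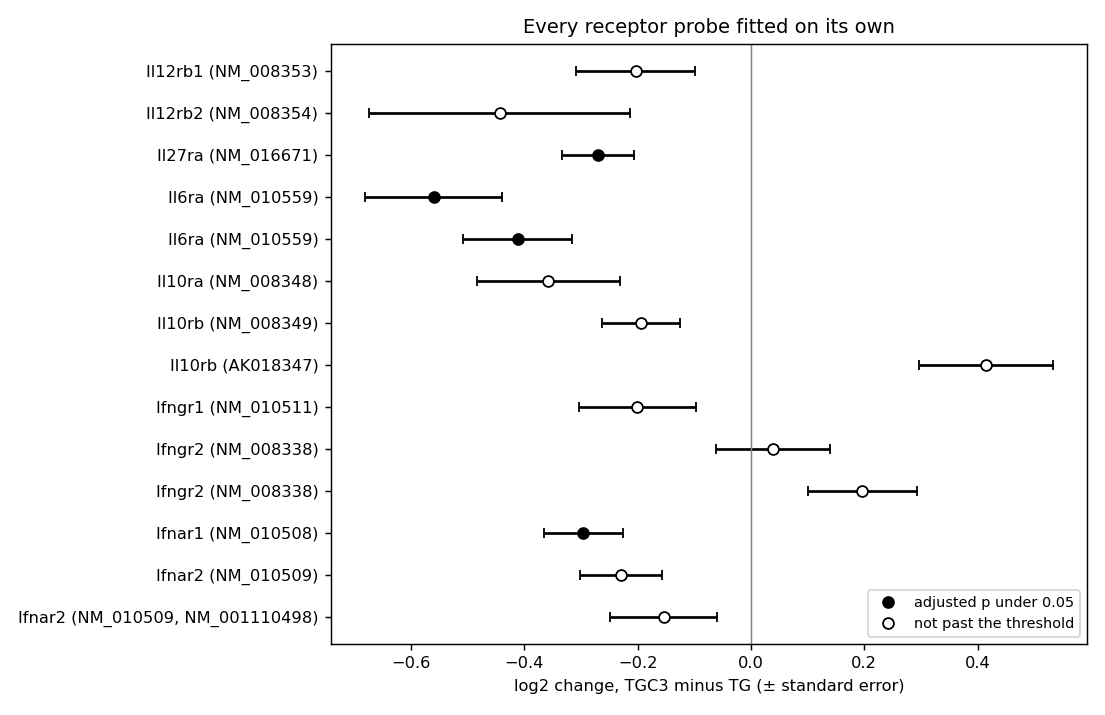
Change of each of the 14 receptor probes, TGC3 minus TG on the log2 scale with the standard error from the fit of every probe on its own, named by gene and transcript record. The 4 filled probes pass, those of Il27ra, Il6ra and Ifnar1, all below 0, while the dimmer Il10rb probe and the probes of Ifngr2 lie above 0.

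The Ifnar2, Il10rb, Ifnar1 and Ifngr2 genes stand side by side in this order on chromosome 16, where their 7 probes span 170.0 kb (chr16:91394044-91564041 on mm9). RefSeq (GRCm38.p6) holds no other protein-coding gene between them. Along the cluster the changes were -0.23, -0.19, -0.30 and 0.04. The tested protein-coding neighbours, looked at after the receptors' values were seen, were Paxbp1 and 4932438H23Rik before the cluster and Tmem50b, Dnajc28, Gart and Son after it. They had changes of -0.17, -0.17, 0.09, -0.06, -0.19 and -0.06 in this order, and 0 of them passed the threshold (adjusted p = 0.0900 to 0.835), with Paxbp1 past an unadjusted p of 0.05. Olig1 and Olig2, which lie between 4932438H23Rik and Ifnar2, could not be tested.

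**Figure D4:**
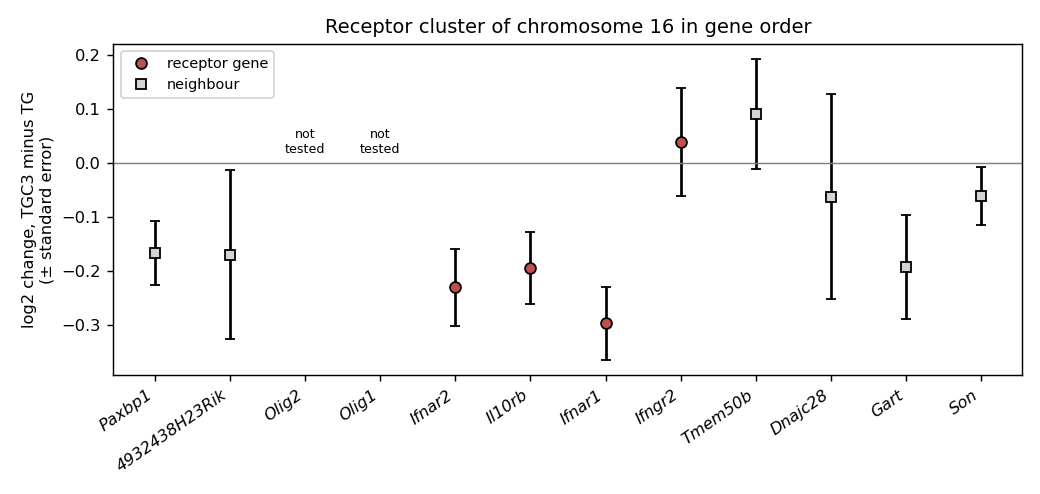
Change of the receptor genes of chromosome 16 and their protein-coding neighbours in gene order, TGC3 minus TG on the log2 scale with standard error. Ifnar2, Il10rb and Ifnar1 lie between -0.30 and -0.19, and Ifngr2 and the neighbour Tmem50b just above 0.

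Promoters of 6 of the 10 genes were matched in RefSeq (GRCm38.p6), each covering 250 bases before the start site to 50 after it. They were searched for the letters of a STAT element, TTCNNNGAA, which reads the same on both strands, and of an interferon response core, GAAA, any 2 bases and GAAA, on either strand. The STAT letters were in the windows of Ifnar1, Ifnar2 and Il12rb2, 3 of 6, and in 8.3% of all 32851 promoters. The interferon response core was in 0 of the 6 windows and in 3.44% of all promoters. The windows of the type I interferon receptor pair are shown with the STAT letters in capitals, which begin 5 bases before the start site of Ifnar1 and 214 before that of Ifnar2.
Ifnar1 (chr16:91484965-91485264, plus strand, GRCm38.p6): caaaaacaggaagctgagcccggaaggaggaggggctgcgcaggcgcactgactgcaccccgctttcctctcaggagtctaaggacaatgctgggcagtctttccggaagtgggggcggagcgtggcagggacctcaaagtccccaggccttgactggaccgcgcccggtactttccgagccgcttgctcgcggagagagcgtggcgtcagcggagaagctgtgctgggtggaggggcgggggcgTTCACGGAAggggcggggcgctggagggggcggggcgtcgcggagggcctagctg
Ifnar2 (chr16:91372533-91372832, plus strand, GRCm38.p6): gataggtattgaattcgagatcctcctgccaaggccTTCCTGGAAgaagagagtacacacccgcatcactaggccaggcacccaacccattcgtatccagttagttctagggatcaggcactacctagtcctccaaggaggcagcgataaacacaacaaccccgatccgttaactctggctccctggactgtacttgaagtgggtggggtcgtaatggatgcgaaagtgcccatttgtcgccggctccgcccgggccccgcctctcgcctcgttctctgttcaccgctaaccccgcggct

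Among the other genes of these pathways, 105 genes in 8 lists, 88 could be tested, of which 11 were higher and 17 lower. Over all genes 16.6% were higher and 9.47% lower, which is the background for each list, and no list was tested against it. The ligand list held 16 genes, of which 5 could be tested, with 4 higher and 0 lower (median 0.44). Ifng, the product of IL-12 stimulated T cells, read 6.94, 6.50 and 6.75 in TGC3, against 5.95, 6.11 and 6.38 in TG (0.59 ± 0.16, adjusted p = 0.0391, with 1 of 2 probes passing on its own). The others were Ifna2, dim and with a probe that may also read related interferon genes (0.66 ± 0.12, adjusted p = 0.0122), Ebi3, dim, the beta chain of IL-27 (0.44 ± 0.08, adjusted p = 0.0139), and Il27, its alpha chain, named after its value was seen (0.39 ± 0.06, adjusted p = 0.00799). Il12a, Il12b, Il10 and Il6 were among the 11 ligands that could not be tested. In the 2 dimmest classes of genes, which hold Ifna2 and Ebi3, the median change was 0.33 and 0.28, and 443 and 505 of 1639 genes each were called higher. Ifng lost its call when TGC3 1, TGC3 3, TG 1 or TG 2 was left out, and Ebi3 when TG 2 was. Of 6 tested partner and related chains 2 were lower, Il6st and Il11ra1, the IL-11 binding partner of gp130 (-0.64 ± 0.06, adjusted p = 0.00273), and 2 higher, Lifr (0.72 ± 0.19, adjusted p = 0.0382) and Il22ra1, the partner of IL10RB in the IL-22 receptor (0.53 ± 0.11, adjusted p = 0.0171), both dim. Lifr lost its call on leaving out TGC3 1, TGC3 3, TG 2 or TG 3, and Il22ra1 on leaving out TGC3 1, TG 1 or TG 2. The number of higher chains was 0 after quantile or cyclic loess normalization, in the deposited values and with either normexp setting.

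The kinases and transcription factors bound to the receptors were measured in full, and of 8 genes 3 were lower and 0 higher, with a median of -0.21 and every change below 0. Stat3 (-0.25 ± 0.07, adjusted p = 0.0399), Stat2 (-0.24 ± 0.06, adjusted p = 0.0315) and Jak2 (-0.21 ± 0.06, adjusted p = 0.0459) passed over all genes. None of them passed when any 1 array was left out (adjusted p = 0.0504 to 0.124). With probes fitted on their own, Jak2 did not pass and Stat3 passed on 1 of 2 probes. The number lower was also 0 after quantile or cyclic loess normalization, in the deposited values, with no filter on dim probes and with unrepaired normexp. Tyk2 (-0.23 ± 0.14), Stat4 (-0.22 ± 0.16), Jak1 (-0.21 ± 0.10) and Irf9 (-0.11 ± 0.09) did not pass (adjusted p = 0.183 to 0.399). Jak1 passed without TGC3 2 (adjusted p = 0.0243) but not on leaving out any other 1 array (adjusted p up to 0.388).

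Among the inhibitors of these pathways 4 of 10 were lower and 0 higher (median -0.22), where 9.47% of all genes were lower. Usp18, which binds IFNAR2 and damps type I interferon signals, showed the largest change of the list, with 0.90, 1.38 and 0.78 in TGC3, against 2.06, 1.99 and 2.38 in TG (-1.12 ± 0.18, adjusted p = 0.00978). It was 2.18-fold lower and passed without any 1 array. Socs1, an inhibitor of JAK kinases (-0.52 ± 0.11, adjusted p = 0.0214), the phosphatase gene Ptpn6 (-0.42 ± 0.10, adjusted p = 0.0327, 1 of 3 probes), and Pias1, named after its value was seen (-0.24 ± 0.06, adjusted p = 0.0358, 1 of 2 probes), also passed. Socs1 lost its call on leaving out TGC3 3 or any 1 TG array, Ptpn6 on leaving out any 1 array other than TG 2, and Pias1 on leaving out any 1 array.

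Most targets of type I interferon did not pass. Of 22, 4 were lower, 0 higher and 18 neither, where 9.47% of all genes were lower. The median was -0.27, and the changes ran from -0.98 to 0.18, so that some targets lay above 0. Mx2 (-0.98 ± 0.22, adjusted p = 0.0240), Oasl1 (-0.78 ± 0.19, adjusted p = 0.0321) and Rsad2 (-0.58 ± 0.13, adjusted p = 0.0231, 2 of 3 probes) passed, as did Zbp1, named after its value was seen (-0.44 ± 0.12, adjusted p = 0.0378). Mx2 and Rsad2 lost their call on leaving out TGC3 1, TGC3 3, TG 1 or TG 3, Oasl1 on leaving out any 1 array other than TG 1, and Zbp1 any other than TGC3 1. Of 19 tested interferon gamma targets 2 were lower and 0 higher (median -0.06), a share near the 9.47% of all genes called lower: Irgm2, an interferon-inducible GTPase (-0.62 ± 0.09, adjusted p = 0.00745), which passed without any 1 array, and Nlrc5, an activator of MHC class I genes (-0.37 ± 0.08, adjusted p = 0.0189), which lost its call when TGC3 1, TGC3 3, TG 1 or TG 2 was left out.

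Of 10 genes downstream of IL-12, 2 were higher and 0 lower (median 0.19), a share near the 16.6% of all genes called higher: Gadd45b, a stress response gene (0.74 ± 0.08, adjusted p = 0.00367), and Il18rap, a chain of the IL-18 receptor (0.56 ± 0.07, adjusted p = 0.00480), both passing without any 1 array. Of 8 tested STAT3 targets 3 were higher and 2 lower (median 0.05). Pim1, a survival kinase (0.77 ± 0.06, adjusted p = 0.00168), Junb (0.53 ± 0.11, adjusted p = 0.0182) and Maf (0.35 ± 0.07, adjusted p = 0.0177) rose, and the transcription factors Bcl6 (-0.49 ± 0.08, adjusted p = 0.0109) and Bcl3 (-0.45 ± 0.11, adjusted p = 0.0277) fell. Junb also belongs to the immediate early genes. Pim1 and Bcl6 passed without any 1 array. Junb lost its call on leaving out TGC3 1, TGC3 3, TG 1 or TG 3, Maf on leaving out TGC3 1, TG 2 or TG 3, and Bcl3 on leaving out TGC3 3 or any 1 TG array, and 1 of 2 Junb and 2 of 4 Maf probes passed on their own.

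**Figure D5:**
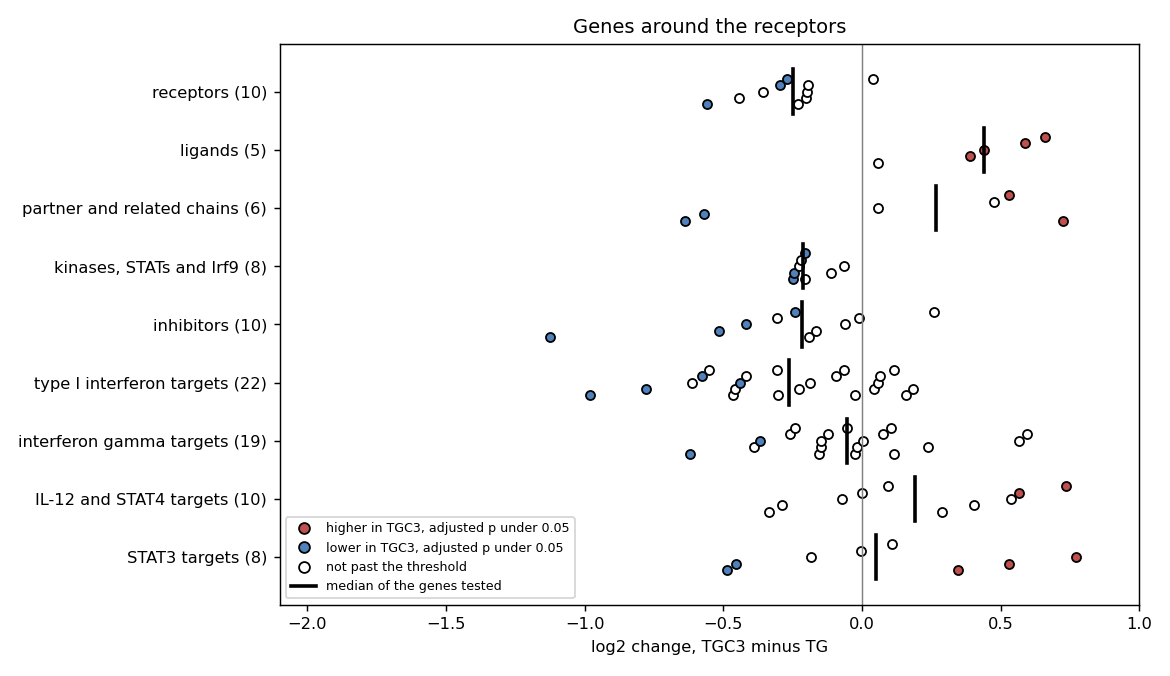
Changes of the receptor genes and of the genes in 8 lists around them, TGC3 minus TG on the log2 scale, a point per tested gene with the number tested in brackets and the median as a bar. Kinases and STATs lie below 0 throughout, tested ligands above 0, and Usp18 is the lowest point among the inhibitors.

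The genes whose pattern over the 6 arrays was most like each called receptor were found by Pearson correlation over 15107 other genes above background on all arrays. For Il27ra they were Znrf1 (0.998), Gne (0.997) and Mvd (0.997), for Ifnar1 Hcfc2 (0.999), Purg (0.997) and Cflar (0.997), and for Il6ra Supt20 (0.998), Mau2 (0.996) and the transcript CB321262 (0.993). The 6 points form the 2 genotype groups, so each correlation includes the difference between the genotypes. Their changes lay between -0.57 and -0.14, and Supt20 did not pass (adjusted p = 0.134).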

How the data were processed

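RNA of 6 samples was labelled with Cy3 and hybridised to Agilent arrays of 45018 spots. The signal used is an intensity that, per the file headers, came from Agilent Feature Extraction 10.7.3.1 (10.7.1.1 in the submitters' processing notes) after background subtraction and detrending within the array. The deposited matrix holds log2 values normalized between arrays, used as an alternative, and how it was made is not given in the sources used here.

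Spots of a probe were averaged on the log2 scale, 11 probes with outlier spots were left out, and each array's 75th percentile was subtracted. A probe entered the fit if 3 or more of the 6 arrays read it well above background. Probe names were updated from RefSeq by accession (27668 probes), symbol (5589) or synonym (471), and 7446 kept the file's name. The brightest such probe stood for its gene. TGC3 was compared with TG by limma 3.58.1 in R 4.3.3 (lmFit and eBayes, two-sided, Benjamini-Hochberg adjusted p under 0.05), with tables made in pandas 2.3.3 and figures in matplotlib 3.10.9. On simulated data the fit recovered 41 of the 67 genes set to 1.5-fold and 55 of the 67 set to 2-fold, and called 6 of 16189 unchanged ones. The signal over background sets the precision, since arrays give no counts.

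The members, lists, tests and alternatives were chosen with earlier results of these data known. Genes were named by a rule: the 10 receptors, Cxcr3, Cd8a and Cd8b1, up to 3 genes past the threshold per direction and list, all kinases and STATs, and the 3 most correlated genes of each called receptor. Exceptions are marked in the text. Some items that the rule or the lists hold are not reported here by name, though counts and medians of the lists include them.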

Additional observations from a re-analysis of the deposited data

How the results depend on the processing

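The number of receptors called lower, 3, was 2 after quantile or cyclic loess normalization and in the deposited values, 3 with the repaired normexp correction, with a filter on all 6 arrays and with the mean or most variable probe, 4 probes when each was fitted on its own, 5 with trend and robust settings, 6 with array weights and 7 after median centring. It was 0 with no filter on dim probes and with the unrepaired normexp correction, and 0 to 4 when 1 array was left out (0 without TG 1 or TG 2, 1 without TGC3 1, TGC3 3 or TG 3, 4 without TGC3 2). The number called higher was 0 under every alternative run. Samples with the same replicate number did not deviate together (correlations of -0.003, -0.077 and -0.099, against -0.015 to 0.103 for unlike numbers). With 3 arrays per group these values cannot decide whether samples were paired, and the sources used here state no pairing. With the replicate number as a block 0 receptors, and 1790 higher and 553 lower genes of all, were called. Over all genes, the 2721 higher and 1552 lower calls became 1801 and 4786 after median centring and 0 and 1 with the unrepaired normexp correction. The number lower was 579 with no filter and 2420 with array weights. Leaving out 1 array gave 1756 to 2359 higher and 572 to 1508 lower. The unrepaired normexp correction, in which 7 spot backgrounds of TG 3 were aberrant, turned the direction of Il12rb1 (0.20), Il10ra (0.0214), Il10rb (0.21), Il27ra (0.10), Ifngr1 (0.18), Ifnar2 (0.21) and Ifngr2 (-0.37), none past the threshold. Il10rb was 0.11 by the mean of its probes and 0.415 by its most variable probe, which is the dimmer one. Ifngr2 turned to -0.0225 after quantile normalization and -0.0221 in the deposited values, -0.14 after median centring and, with 1 array left out, lay between -0.0533 (without TG 1) and 0.1281 (without TG 2). Il6ra, Il12rb2 and Ifnar1 stayed below 0 under all 20 alternatives. Of 304 counts of calls in the pathway lists under the alternatives, 226 stayed within 1.5 times and 78 did not. The causes of these shifts were not tested. Changes near 1.2-fold, as for most receptors, lie below the sizes simulated, and the simulation was adjusted more strictly than the data. A missed threshold does not show that a receptor was alike in both groups.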
